A study of Mus musculus with 27 samples.

Results

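The MYC and ribosome biogenesis genes described here are Myc and a list of genes for nucleolar and ribosome assembly factors, 44 in all of the 35604 genes in the deposited table. They were picked by symbol, and no measured value entered the rule. All 44 were found, all are protein coding and all passed the filter of at least 1 TPM in at least 3 libraries. TPM is a relative transcript abundance, corrected for transcript length and for the total of the library. By role the list holds Myc, 4 nucleolar chaperones and scaffolds, 4 proteins of box C/D small nucleolar ribonucleoproteins (snoRNPs), 3 proteins of box H/ACA snoRNPs, 3 subunits of RNA polymerase I, 12 factors of the small ribosomal subunit, 16 factors of the large ribosomal subunit and 1 helicase.

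MYC is a transcription factor that pairs with MAX on DNA and is known for raising the expression of genes for ribosome production, nucleotide synthesis and metabolism in growing cells. Ribosomes are assembled in the nucleolus, where RNA polymerase I makes the ribosomal RNA precursor, snoRNPs modify it, and processing factors cut and fold it into the small and the large subunit. Resting B cells are small and make ribosomes slowly, and activated B cells enlarge their nucleoli and grow before they divide.

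The polyadenylated RNA came from naive B cells, taken as primary cells from spleens of wild-type mice, and the labels name no transgene or deletion in any group. A group of 3 libraries is the naive cells themselves, with no cytokine or antibody added. The other 8 groups, also of 3 libraries each, were cultured for 6 h or 24 h with an agonist antibody to CD40 (clone HM40-3, 1 µg/mL), which stands in for contact with helper T cells. The antibody was given alone, with IL-4 at 12.5 ng/mL, with IL-21 at 50 ng/mL, or with both; IL-4 and IL-21 are cytokines of helper T cells. The study's title poses the question of how the action of IL-21 on B cells depends on context. Nothing in the labels says whether the 3 libraries of a group came from separate mice. The p values thus measure the spread between libraries, which may be technical. That spread is estimated for each gene over all 9 groups together, so a group with a wider spread gets the same standard error (SE).

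The 27 libraries are known only as TPM, so their sequencing depth is unknown, and listed values summed to 766384 to 825365 per library. B cell markers summed to 414 to 4810 TPM and all 7 of 7 were detected. Their mean sum was 1920 TPM with anti-CD40 for 6 h, 546 TPM with IL-21 added and 819 TPM with both cytokines. Erythroid and platelet markers averaged 1410 TPM in naive libraries and 18.3 to 217 TPM after culture, and macrophage and monocyte markers 30.7 and 1.5 to 8.63 TPM. T cell markers ranged from 9.43 to 94.9 TPM, with the highest group mean, 85.2 TPM, in cells given both cytokines for 24 h. Neutrophil markers did not exceed 0.393 TPM and Elane was at 0 in every library. The part of these other cells in the results was not tested, and in bulk RNA fewer cells of a type and less RNA per cell cannot be told apart. Replicate 1 of the naive group and replicate 1 of anti-CD40 with IL-4 at 24 h stood apart from their group mates. Mitochondrial transcripts took 5.5% of TPM in that naive library and 12.7% and 13.5% in the others, and 7.89% in that IL-4 library against 11.6% and 11%. In the IL-4 library T cell markers summed to 78.3 TPM against 27.4 and 27.6 TPM, beside 74.3 to 94.9 TPM with both cytokines at 24 h, and ribosomal protein transcripts took 22.9% against 28.8% and 29.0%. The part of these shares in the results was not tested. Median-of-ratios scaling divides each library by a factor, 1.09 in that naive library and 0.77 and 0.78 in its mates. It was 1.13 in that IL-4 library and 0.71 and 0.61 in its mates, against 0.90 to 1.51 in all libraries of the other groups. By this factor replicate 1 lay within the range of the other groups and its mates below it. Leaving out the 2 replicate 1 libraries thus keeps those mates. Results are given with and without these 2 libraries where that changes a count by more than 1.5 times. The share of all genes called is given for the fit as listed only. Counts under other settings are thus not set beside a share of their own.

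MYC with MAX is known to bind the sequence CACGTG, called an E-box, so the window from 250 bases before to 50 bases after the annotated start of each gene was searched for it in RefSeq sequence of build GRCm38.p6. CACGTG reads the same on both strands, so 1 search covers both, and no other motif was searched. A window was used for 36 of the 44 genes, and not for Npm1, Rrp12, Dcaf13, Myc, Rrs1, Gnl2, Bop1 or Fbl. It was found for 7 of these 36 genes (19.4%) and for 2187 of 27025 genes with a window (8.09%). The stretches of the 4 genes with the highest mean level over all libraries are printed because they carry this motif; capitals mark CACGTG, the lower-case letters the 12 bases on each side, and each reads 5′ to 3′ on the strand of its gene.
Wdr43, chr17:71616220-71616249, plus strand: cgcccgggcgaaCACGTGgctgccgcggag
Pes1, chr11:3963965-3963994, plus strand: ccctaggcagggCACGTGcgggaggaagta
Ltv1, chr10:13193092-13193121, minus strand: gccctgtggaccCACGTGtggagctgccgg
Utp4, chr8:106893643-106893672, plus strand: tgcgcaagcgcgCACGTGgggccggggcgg
Counted from the start site, the first base of the motif lay at position 18 in Wdr43, 3 in Pes1, 29 in Ltv1 and 16 in Utp4. It lay at 38 in Utp20, 25 in Tsr1 and -60 in Nop2. The motif thus lay after the start site in 6 of 7 genes, against 15.2% of all 2349 windows that hold it. These positions count from the start site of the window used. For some genes it differs from the gene start in the GENCODE annotation, which is base 71615895 for Wdr43 and 125131909 for Nop2. A match is a description of the sequence, and binding was not measured.

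The mean log2(TPM + 1) of the 44 genes was lowest in naive cells and highest 6 h after anti-CD40 with both cytokines. In naive libraries it was 4.95, 4.19 and 4.32 in replicates 1 to 3. It was 5.97, 5.80 and 5.79 after 6 h of anti-CD40 and 5.23, 5.03 and 5.48 after 24 h. The cultured libraries lay above all naive libraries, and those of anti-CD40 alone at 6 h above those at 24 h. With IL-4 the mean was 6.27, 6.22 and 6.14 at 6 h and 6.16, 5.58 and 5.38 at 24 h. With IL-21 it was 6.49, 6.22 and 6.44 at 6 h and 5.81, 6.08 and 5.64 at 24 h. With both cytokines it was 6.55, 6.63 and 6.47 at 6 h and 5.81, 5.88 and 5.94 at 24 h.

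Ordered by group mean ± SD (n = 3 each), the groups ran from 6.55 ± 0.08 with both cytokines at 6 h, through 6.38 ± 0.14 with IL-21 at 6 h and 6.21 ± 0.07 with IL-4 at 6 h, to 5.88 ± 0.06 with both at 24 h. Next came 5.85 ± 0.10 with anti-CD40 alone at 6 h, 5.84 ± 0.22 with IL-21 at 24 h and 5.71 ± 0.40 with IL-4 at 24 h. The lowest were 5.25 ± 0.23 with anti-CD40 alone at 24 h and 4.49 ± 0.41 in naive cells. Neighbours in this order overlapped in their single libraries except anti-CD40 with IL-4 at 6 h against both cytokines at 24 h, and anti-CD40 alone at 24 h against naive cells. The order is a description without a test. The 2 libraries that stood apart were the highest of their groups.

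**Figure D1:**
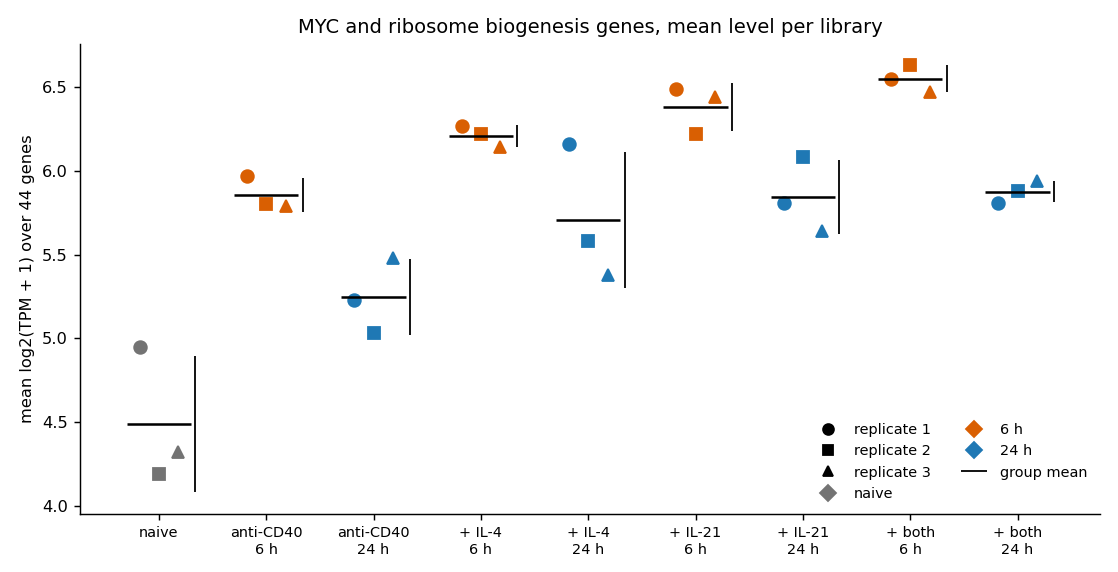
Mean log2(TPM + 1) over the 44 genes (y axis) in each of 27 libraries, by group (x axis); symbols mark the replicate number, colours naive, 6 h and 24 h, horizontal bars the group mean and vertical lines ± 1 SD (n = 3). Naive libraries lie between 4.19 and 4.95 and those with both cytokines at 6 h between 6.47 and 6.63.

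As a share of all listed TPM, the 44 genes took 0.487, 0.349 and 0.388% in the naive libraries and 1.09, 1.14 and 1.1% after 6 h of anti-CD40. The share reached 1.64, 1.78 and 1.93% with IL-21 at 6 h and 1.71, 1.75 and 1.88% with both cytokines at 6 h. Npm1 alone made up much of it, and without Npm1 the group means were 0.231% in naive cells, 0.692% with anti-CD40 at 6 h and 1.19% with both cytokines at 6 h. Between the lowest and the highest group mean, the genes that reached 1 TPM in every library spanned from 2.38-fold for Dcaf13 to 8.11-fold for Nop16, with 3.74-fold for Myc, 6.96-fold for Ncl and 7.76-fold for Gar1. Of the 44 genes, 40 had their lowest group mean in naive cells, 27 had their highest with both cytokines at 6 h and 9 with IL-21 at 6 h. In all, 38 genes peaked in a 6 h group, while Npm1, Dkc1 and Nip7 peaked with IL-4 at 24 h. The transcripts of ribosomal proteins themselves, which are not among the 44, took 27.8% to 29.2% of TPM in naive libraries and 18.2% to 29.0% in cultured ones.

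Anti-CD40 raised most of these genes within 6 h. Called means an adjusted p below 0.05 in a limma fit of log2(TPM + 1) over all 12147 genes that passed the filter, and log2 differences are on that scale, which understates changes of low genes. Of the 44 genes, 36 were called higher and 0 lower than in naive cells, beside 16.6% of all genes tested called higher and 13.3% lower (29.9% called in all). The median difference of the 44 was 1.39 and that of all genes tested 0.06. Naive cells were not cultured, so culture and anti-CD40 cannot be told apart. Among all called genes 55.5% were higher as listed and 44.8% after median-of-ratios scaling, while all members called stayed higher in both. Groups are described as separate where no library of 1 overlapped those of the other. The share of all genes tested with separate groups is not given here.

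The nucleolar chaperones and scaffolds rose, 4 of 4 called higher at 6 h. Ncl encodes nucleolin, an abundant nucleolar RNA-binding protein, and was listed at 374, 225 and 222 TPM in naive libraries and 991, 965 and 864 TPM with anti-CD40 at 6 h. Its log2 difference was 1.82 (SE 0.17, adjusted p = 3.01e-08), and the groups did not overlap. Npm1 encodes nucleophosmin, a histone and ribosome assembly chaperone with many processed pseudogenes whose reads cannot be told apart with certainty, and went from 1400, 1340 and 1550 to 2930, 3700 and 3460 TPM. The related chaperone Npm3 went from 136, 113 and 113 to 302, 331 and 280 TPM. Both groups of each gene were separate, with log2 differences of 1.23 (SE 0.22) for Npm1 and 1.33 (SE 0.12) for Npm3. Nolc1, which encodes a scaffold for snoRNPs in the nucleolus, went from 45.2, 23 and 20 to 88.6, 85 and 104 TPM, a difference of 1.71 (SE 0.37).

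The snoRNP proteins rose as well, 3 of 4 for box C/D and 3 of 3 for box H/ACA. Fbl encodes fibrillarin, the methyltransferase of box C/D snoRNPs, and was listed at 261, 148 and 143 TPM in naive libraries and 541, 514 and 558 TPM at 6 h. Nop58, a core protein of the same particles, went from 225, 178 and 254 to 738, 882 and 821 TPM, a log2 difference of 1.9 (SE 0.21). Its partner Nop56 was listed at 85.6, 11.6 and 29 TPM in naive libraries, and replicate 1 lay above all libraries at 6 h, which were listed at 82.7, 77.1 and 71.4 TPM. The other naive libraries were far lower, and the difference of 1.29 (adjusted p = 0.0535) missed the threshold. Without the 2 libraries that stood apart, and with GC-dependent centring, which subtracts a curve on GC content from each library, Nop56 was called higher as well. Rrp9, a protein of the box C/D particle that guides cuts in the precursor, rose by 1.96 (SE 0.27).

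Dkc1 encodes dyskerin, the pseudouridine synthase of box H/ACA snoRNPs, and went from 56.9, 25.2 and 35.3 TPM in naive libraries to 157, 170 and 134 TPM at 6 h. Gar1, its partner in the particle, went from 31.9, 30.1 and 35.7 to 111, 113 and 125 TPM. Nhp2, another core protein, went from 107, 99 and 95.9 to 494, 470 and 443 TPM, a log2 difference of 2.21 (SE 0.12, adjusted p = 4.53e-12) or 4.66-fold in mean TPM. Nhp2 varied little within groups and had the smallest adjusted p of the 44 genes. All 3 had separate groups.

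Of the RNA polymerase I subunits, Polr1a, which encodes the largest catalytic subunit, rose from 8.59, 6.38 and 5.05 to 13.5, 13.2 and 17 TPM, a log2 difference of 1.04 (adjusted p = 0.0272). Polr1b, the other catalytic subunit, was listed at 0.585, 1.44 and 0.0809 and 1.46, 1.15 and 0.106 TPM, and Polr1c, a subunit shared with RNA polymerase III, at 1.5, 1.44 and 0.631 and 2.65, 3.4 and 1.87 TPM. Neither was called, and Polr1b scattered widely within both groups.

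The small subunit factors rose, 11 of 12 called higher at 6 h. Heatr1 and Utp20 belong to the processome that forms on the precursor, and were higher in every 6 h library than in any naive one. Heatr1 went from 24.2, 15.2 and 14 to 70.6, 49.4 and 42.1 TPM and Utp20 from 11.3, 6.04 and 6.09 to 21.6, 17.5 and 16.1 TPM. Bysl, Ltv1, Nob1 and Tsr1 act late in small subunit maturation, and Nob1 is the endonuclease that makes the final cut. Bysl went from 8.95, 4.73 and 4.07 to 14.3, 15 and 18.9 TPM, Ltv1 from 39.7, 20.7 and 23.8 to 70.6, 59.3 and 60.5 TPM and Nob1 from 25.1, 16.3 and 17 to 47.1, 32.6 and 34 TPM. These 3 genes had separate groups. Tsr1 was listed at 6.97, 0 and 2.45 TPM in naive libraries, 1 of them 0, and at 18.1, 15 and 10.4 TPM at 6 h. Its log2 difference of 2.33 (SE 0.81, adjusted p = 0.0329) had a large error, and without the filter on low values it was no longer called, nor was Polr1a. Nop14 was the small subunit gene not called, at 3.13, 0.272 and 0.928 TPM in naive libraries and 3.58, 2.69 and 1.76 TPM at 6 h.

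The large subunit factors rose, 13 of 16 called higher. The largest difference of the 44 genes was that of Nop16, whose yeast counterpart is a nucleolar factor of large subunit assembly. It went from 18.2, 9.09 and 11.6 to 79.9, 83.9 and 76.8 TPM, a log2 difference of 2.59 (SE 0.21, adjusted p = 1.9e-09), or 6.17-fold in mean TPM. Pes1, Wdr12 and Bop1 form the PeBoW complex needed for large subunit processing. Pes1 went from 51.3, 32.5 and 35.4 to 130, 104 and 94.8 TPM and Wdr12 from 13.3, 10.7 and 14.8 to 56.8, 61.6 and 50.8 TPM, both with separate groups. Bop1 was listed at 4.35, 0.795 and 2.69 and 6.67, 2.4 and 2.8 TPM, overlapped and was not called (0.50, adjusted p = 0.467). In mean TPM over all libraries, a scale corrected for length, Bop1 stood at 3.79, Pes1 at 110 and Wdr12 at 53.0.

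Gnl3, which encodes nucleostemin, a nucleolar GTPase, went from 44.5, 22.7 and 25.4 to 115, 94.1 and 101 TPM. Rrs1 went from 49, 28.8 and 23.2 to 82.9, 84.4 and 100 TPM, Mrto4 from 43.1, 23.8 and 22 to 97.3, 79.4 and 95.7 TPM and Ppan from 45.7, 24.3 and 22.5 to 103, 73.8 and 92.7 TPM; the yeast counterparts of these 3 act in large subunit assembly. All 4 genes had separate groups and log2 differences between 1.44 and 1.76. Ddx21, a helicase of RNA polymerase I transcription and precursor processing, went from 70.6, 45.9 and 43.4 to 131, 123 and 123 TPM, a difference of 1.26 (SE 0.30). After Nop16, the largest differences among called genes were those of Tsr1 and Nhp2. Of the remaining members, 11 were called higher and are given as means in naive cells and at 6 h. Utp4 and Wdr43 are processome proteins, at 12.2 and 38.8 TPM and at 96.2 and 213 TPM. Noc4l and Dcaf13, small subunit factors, stood at 8.35 and 23.6 TPM and at 50.2 and 98.7 TPM. Of the large subunit factors, Ebna1bp2 stood at 43.3 and 134 TPM, Nip7 at 26 and 66.3 TPM, Gnl2, a GTPase, at 36.5 and 80.5 TPM and Wdr74 at 19.3 and 37.6 TPM. Noc2l stood at 53.5 and 134 TPM, its relative Noc3l at 8.02 and 22.7 TPM and Rrp12 at 5.49 and 18.7 TPM. Rrp1b, a nucleolar protein, and Nop2, a methyltransferase, were not called. Rrp1b was listed at 5.08, 2.01 and 2.67 TPM in naive libraries and 7.75, 4.03 and 3.34 TPM at 6 h, and Nop2 at 0.278, 0 and 0 and 0.138, 0.171 and 0.785 TPM. With Bop1 these are the 3 large subunit genes not called, and the libraries of each overlapped between the groups. By annotation, 14 of the 44 genes share exon bases with a protein-coding gene on the other strand, among them Nhp2, Nop56, Dkc1, Gnl3, Bysl, Pes1, Rrp9, Tsr1 and Wdr12. Whether the quantification used strand is not given in the sources used here, so reads of these pairs may not be separated.

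**Figure D2:**
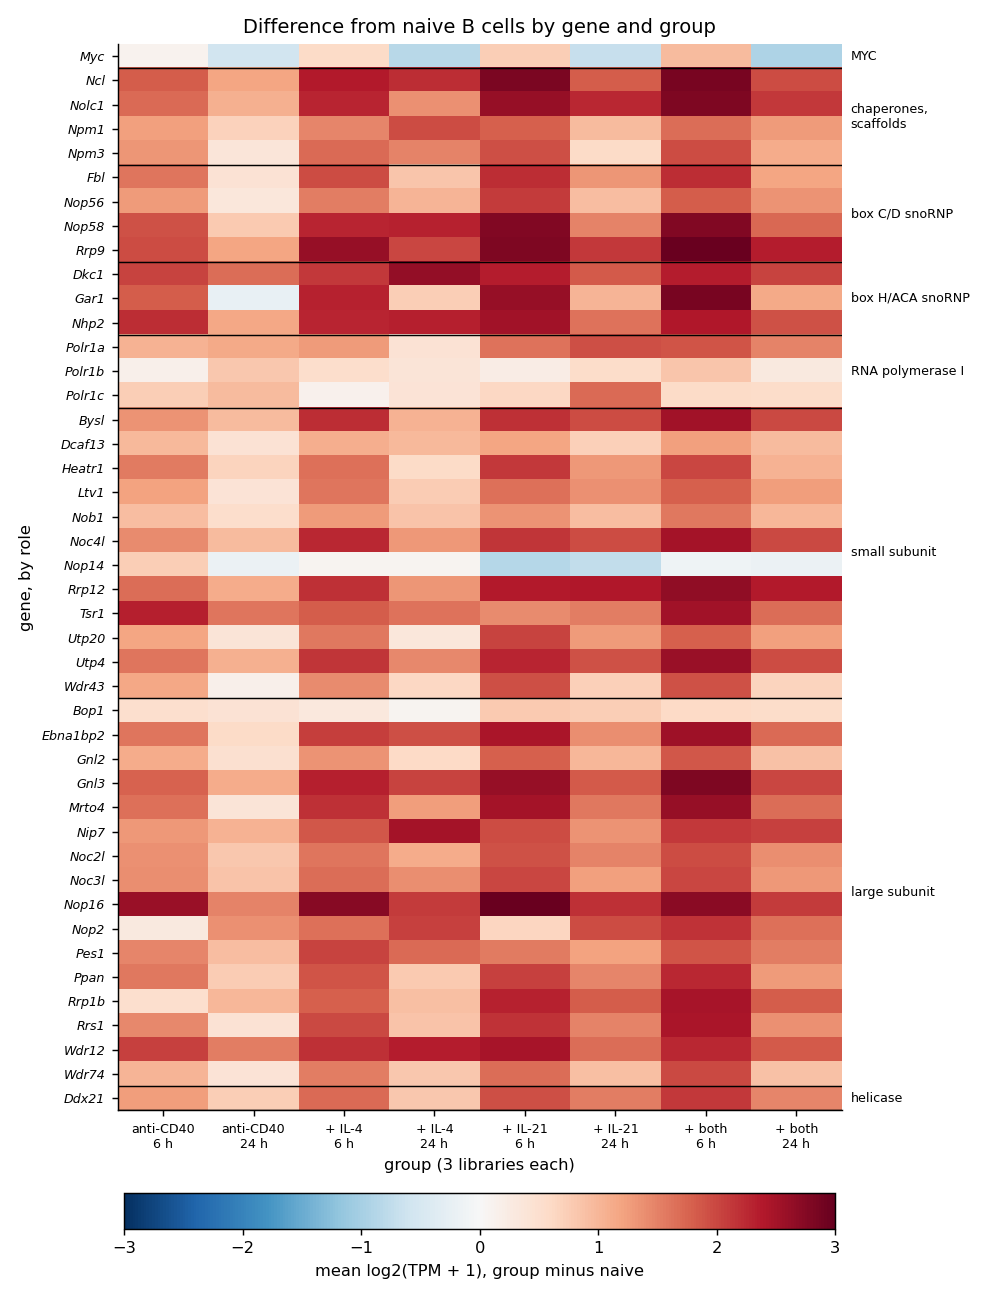
Mean log2(TPM + 1) of each of the 44 genes (y axis, ordered by role) in 8 stimulated groups (x axis, 3 libraries each) minus the mean of the naive group; red is higher and blue lower than naive. Most genes are red in every column and darkest at 6 h, with Nop16 at 2.59 after 6 h of anti-CD40, while Myc is near 0 there (0.10) and Nop14, Bop1 and Polr1b are pale.

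After 24 h of anti-CD40 fewer genes stood above naive cells. Of the 44, 22 were called higher and 0 lower, beside 18.9% of all genes tested called higher and 26.8% called in all. The median difference was 0.79, against 0.25 for all genes tested. Of all genes called, 70.7% were higher as listed and 44.9% after median-of-ratios scaling. The largest differences among called genes were those of Dkc1, at 123, 110 and 129 TPM and 1.67 (SE 0.19, adjusted p = 1.15e-06), of Wdr12, at 38.9, 42.8 and 36.4 TPM and 1.54 (SE 0.17, adjusted p = 5.94e-07), and of Nop16, at 35.3, 34.5 and 40.1 TPM and 1.48 (SE 0.21, adjusted p = 1.18e-05). These libraries lay above every naive library of the same gene. The 4 nucleolar chaperones and scaffolds were all called higher, and Ncl was listed at 609, 534 and 662 TPM. After median-of-ratios scaling and with GC-dependent centring Ncl and Nolc1 were called, and Npm1 and Npm3 were not, while without the filter on low values Npm1 and Nolc1 were not. Gar1 (34.1, 13.7 and 45.9 TPM) and Fbl (248, 206 and 272 TPM) were not called against naive cells. The count was 36 without the 2 libraries that stood apart and 13 without naive replicate 2.

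Myc, on chromosome 15 (chr15:61985391-61990374, plus strand, GRCm38), was not among the genes called higher than in naive cells. It was listed at 115, 70.2 and 65.6 TPM in naive libraries and 97.3, 71.4 and 94.7 TPM after 6 h of anti-CD40, and the groups overlapped. After 24 h of anti-CD40 it was listed at 61.6, 41.4 and 63.2 TPM. Naive replicate 1 was the highest of the 9 values. Myc was not called against naive cells at 6 h, 0.10 (SE 0.34, adjusted p = 0.876), or at 24 h, -0.56 (SE 0.34, adjusted p = 0.24). After scaling by medians of ratios the 6 h difference was -0.05 (adjusted p = 0.887), of opposite sign, and the 24 h difference -0.88 (adjusted p = 0.00225), past the threshold; with GC-dependent centring the latter was -0.81 (adjusted p = 0.00451).

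With IL-4 at 6 h Myc was listed at 113, 131 and 120 TPM, with IL-21 at 149, 111 and 150 TPM and with both at 170, 167 and 134 TPM. All libraries of these 3 groups lay above those of anti-CD40 alone at 6 h. The differences from anti-CD40 alone were 0.48 (SE 0.34, adjusted p = 0.72) for IL-4 and 0.63 (SE 0.34, adjusted p = 0.281) for IL-21, and neither was called. With GC-dependent centring the IL-21 difference was 0.60 (adjusted p = 0.0479), past the threshold. At 24 h Myc was listed at 101, 39.1 and 22.5 TPM with IL-4, 47.2, 68.1 and 37.6 TPM with IL-21 and 39.2, 39.7 and 47 TPM with both. These values overlapped those of anti-CD40 alone. The difference of IL-21 with IL-4 from IL-4 alone was not called as listed, but was -0.64 (adjusted p = 0.0311) after median-of-ratios scaling and -0.62 (adjusted p = 0.0379) with GC-dependent centring, both past the threshold. Replicate 1 of the IL-4 group was the highest of all 24 h libraries. From 6 h to 24 h Myc fell with IL-4 (-1.42, SE 0.34, adjusted p = 0.0043), with IL-21 (-1.43, SE 0.34, adjusted p = 0.00228) and with both (-1.87, SE 0.34, adjusted p = 0.00023), the last to 0.268 of its 6 h mean. With anti-CD40 alone the difference was -0.67 (SE 0.34, adjusted p = 0.17), not called, and -0.83 (adjusted p = 0.00356) after median-of-ratios scaling.

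IL-21 added to anti-CD40 raised some of these genes further. At 6 h 11 of the 44 were called higher and 0 lower, beside 7.43% of all genes tested called higher and 4.68% lower (12.1% in all). The median difference was 0.62, against 0.10 for all genes tested, and 41 of the 44 differences were above 0. The largest called differences were those of Rrp1b, Ncl and Nop58. Rrp1b, a nucleolar protein tied to large subunit processing, was listed at 7.75, 4.03 and 3.34 TPM with anti-CD40 and 19.1, 15 and 24.9 TPM with IL-21 added, a log2 difference of 1.81 (SE 0.45, adjusted p = 0.00831). Ncl went from 991, 965 and 864 to 1790, 1790 and 2090 TPM, a difference of 1.01 (SE 0.17, adjusted p = 0.000351). Nop58 went from 738, 882 and 821 to 1330, 1650 and 1540 TPM, a difference of 0.89 (SE 0.21, adjusted p = 0.00614). The groups of all 3 were separate. After median-of-ratios scaling the difference of Nop58 was 0.79 (adjusted p = 0.114), no longer past the threshold. Wdr43, a small subunit processome protein, went from 230, 210 and 200 to 333, 390 and 362 TPM, and Mrto4 from 97.3, 79.4 and 95.7 to 160, 166 and 167 TPM.

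By role, 6 of 16 large subunit factors, 2 of 4 chaperones and scaffolds, 2 of 4 box C/D proteins and 1 of 12 small subunit factors were called higher with IL-21 at 6 h, and no box H/ACA or RNA polymerase I protein. Gar1, at 111, 113 and 125 TPM with anti-CD40 and 225, 187 and 201 TPM with IL-21 added, had separate groups and a difference of 0.80 (SE 0.37, adjusted p = 0.181). Counts with IL-21 at 6 h were larger under other settings, 19 after median-of-ratios scaling, 23 with GC-dependent centring and 29 without the 2 libraries that stood apart, in each case with Nop14 as the 1 gene called lower. The share of all genes called under these settings is not given here. B cell markers, at the sums given above, were lower with IL-21 at 6 h; their part in these results was not tested. Nop14 was listed at 0.73, 0 and 0 TPM with IL-21 at 6 h, 2 of these at 0.

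At 24 h, IL-21 with anti-CD40 raised 17 of the 44 genes and lowered 0, beside 17.8% of all genes tested called higher and 6.33% lower (24.2% in all). The median difference was 0.67, against 0.23 for all genes. Among all called genes 73.8% were higher as listed and 57% after median-of-ratios scaling. Rrp12, which encodes a factor of small subunit maturation and export, had the largest called difference, from 11.3, 11.6 and 14.5 TPM to 33.4, 41.3 and 22.5 TPM (1.28, SE 0.34, adjusted p = 0.0086). Gar1 went from 34.1, 13.7 and 45.9 to 64.5, 81.1 and 58.1 TPM (1.24, SE 0.37, adjusted p = 0.0163) and Mrto4 from 37.2, 31.9 and 43.8 to 88.7, 99 and 74 TPM (1.19, SE 0.25, adjusted p = 0.00107). By role, 5 of 16 large subunit factors, 5 of 12 small subunit factors, 3 of 4 box C/D proteins, 2 of 3 box H/ACA proteins and 2 of 4 chaperones and scaffolds were called higher. For Rrp12, Gar1 and Mrto4 the lowest library with IL-21 lay above the highest without it. Ebna1bp2, Gnl3, Mrto4, Ncl, Nop58, Rrp9 and Wdr43 were called higher at both times, which is 7 of the 11 called at 6 h and 7 of the 17 called at 24 h. The share of all genes tested that was called higher at both times is not given here. Under median-of-ratios scaling Nop58 was called at neither time, and Ebna1bp2 was not called at 24 h. At 24 h 5 were called when replicate 2 of the anti-CD40 group was left out, 6 when replicate 2 of the IL-21 group was, and 27 without the 2 libraries that stood apart.

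IL-4 added to anti-CD40 gave a single called gene at 6 h and 17 at 24 h. At 6 h that gene was Nop2, which encodes a methyltransferase of large subunit ribosomal RNA, listed at 0.138, 0.171 and 0.785 TPM with anti-CD40 and 2.62, 1.66 and 3.07 TPM with IL-4 added, a log2 difference of 1.35 (SE 0.35, adjusted p = 0.0244). The share called over all genes tested was 4.04%, and 1.65% were called higher. The median of the 44 was 0.38, against 0.02 for all genes, and 40 of 44 differences were above 0. Nop2 is low, and it was not called with a pseudocount of 0.1 or without the filter on low values, nor without replicate 2 of anti-CD40, replicate 1 of the IL-4 group or replicate 3 of the IL-4 group, each of which gave a count of 0. The count was 9 after median-of-ratios scaling, 9 with GC-dependent centring, 10 without the 2 libraries that stood apart and 2 with the replicate number as a block, a pairing supported for this comparison only by the libraries' own correlations.

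At 24 h, IL-4 raised 17 of the 44 genes and lowered 0, beside 8.28% of all genes tested called higher and 31.4% called in all. The median of the 44 was 0.40, while that of all genes tested was -0.31. Over all genes, of those called 26.4% were higher as listed and 52.4% after median-of-ratios scaling, and 32 members were then called higher and 0 lower. The share of all genes tested that was called higher after that scaling is not given here. Nop58 went from 360, 366 and 390 TPM to 760, 1080 and 1560 TPM, a log2 difference of 1.54 (SE 0.21, adjusted p = 9.31e-06). Nip7, a large subunit factor, went from 62.7, 66.2 and 37.2 to 96.7, 182 and 194 TPM (1.47, SE 0.26, adjusted p = 0.000188), and Ebna1bp2, another, from 70.1, 54.5 and 69.4 to 134, 161 and 209 TPM (1.35, SE 0.15, adjusted p = 4.25e-07). All 3 had separate groups. By role, 8 of 16 large subunit factors, 2 of 12 small subunit factors, 2 of 4 box C/D proteins, 2 of 3 box H/ACA proteins and 3 of 4 chaperones and scaffolds were called higher, and no RNA polymerase I subunit. Npm1 went from 2150, 2620 and 2190 to 3670, 5940 and 7920 TPM, with the 3 IL-4 libraries far apart from each other but above all libraries of anti-CD40 alone. Nhp2 went from 230, 240 and 209 to 455, 553 and 537 TPM and Dkc1 from 123, 110 and 129 to 217, 231 and 263 TPM.

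The 3 libraries of anti-CD40 with IL-4 at 24 h did not rank these genes alike. Replicate 1 was the highest of the 3 for 29 of the 44 genes, replicate 2 for 3 and replicate 3 for 12. Nolc1 was listed at 176, 61.2 and 35.8 TPM, Rrp12 at 32.2, 12 and 7.52 TPM, Polr1a at 22, 8.44 and 3.93 TPM and Ddx21 at 197, 80.8 and 48 TPM, each highest in replicate 1 and lowest in replicate 3. Npm1, Nop58, Wdr12 (52.6, 73.9 and 88.8 TPM) and Nip7 were lowest in replicate 1 and highest in replicate 3. The SE of a gene came from all 9 groups, 0.35 for Polr1a, and does not show the wider spread of this group. The median GC content of the longest transcript was 51.6% for the 29 genes highest in replicate 1 and 46.9% for the 12 highest in replicate 3, and the rank correlation, across 12100 genes, between a gene's deviation in a library from its group mean and GC content was 0.37 in replicate 1, -0.23 in replicate 2 and -0.34 in replicate 3. Signs differed within every group, since each deviation is taken from the group's own mean. Replicate 1 was positive in every group, which that centring does not force, from 0.04 with anti-CD40 alone at 24 h to 0.37. Sizes differed too, with 0.04, -0.10 and 0.10 in the libraries of anti-CD40 alone at 24 h. The correlations were 0.37, -0.08 and -0.41 in naive libraries and 0.31, 0.03 and -0.37 with both cytokines at 6 h. The 17 members called higher with IL-4 at 24 h had a median GC content of 44.7% and the 27 not called one of 53.3%. With GC-dependent centring 31 members were called higher and 0 lower. That centring also shifts each library as a whole, and median-of-ratios scaling, which has no GC term, raised the count as well. The part of GC content on its own was thus not tested. Without the 2 libraries that stood apart 16 were called higher and 5 lower, the latter being Ddx21, Heatr1, Myc, Polr1a and Utp20.

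**Figure D3:**
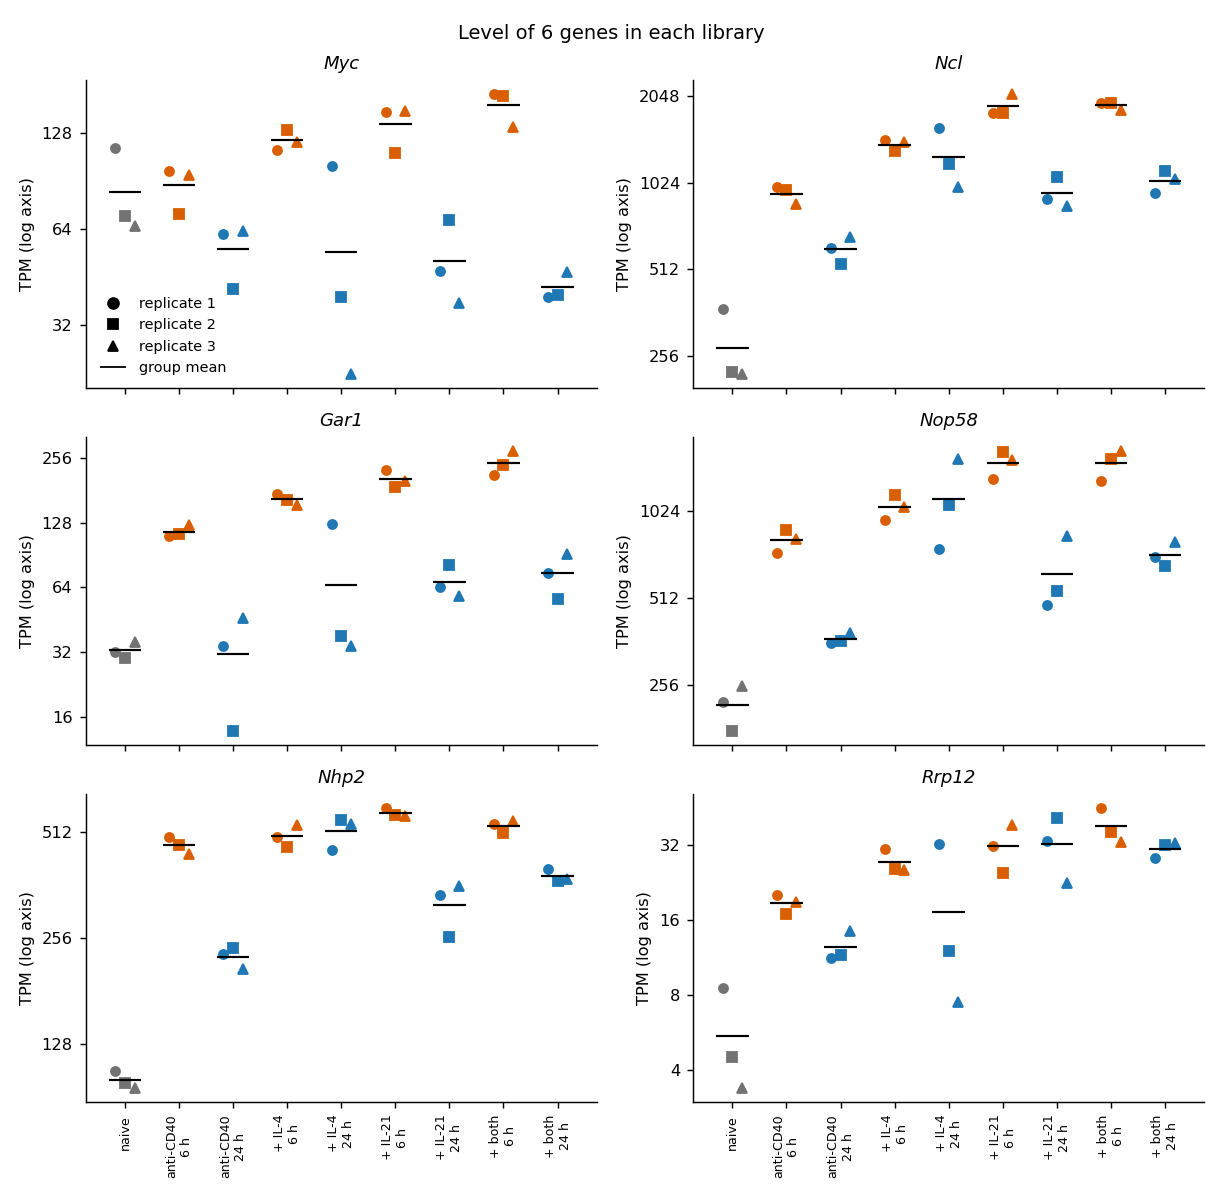
TPM on a log axis (y) of Myc, Ncl, Gar1, Nop58, Nhp2 and Rrp12 in every library, by group (x axis); symbols mark replicate 1, 2 and 3, colours naive (grey), 6 h (orange) and 24 h (blue), and bars the mean of 3. Nhp2 libraries at 107, 99 and 95.9 TPM in naive cells lie well under 494, 470 and 443 TPM after 6 h of anti-CD40, while Myc libraries of the same groups overlap and replicate 1 of IL-4 at 24 h is the highest of its group for Rrp12 and the lowest for Nop58.

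In the presence of IL-4, few of these genes were called for IL-21 in the fit as listed. At 6 h 0 of the 44 were called by limma, and 2.54% of all genes tested were called, 1.25% higher. An unadjusted p below 0.05 was found for 7 of the 44, beside 1212 of all 12147 genes tested. The median was 0.35, against 0.06 for all genes, and 41 of 44 differences were above 0. The count was 2 after median-of-ratios scaling, 3 with GC-dependent centring and 3 without the 2 libraries that stood apart. Ncl, for example, was listed at 1440, 1320 and 1420 TPM with IL-4 and 1940, 1940 and 1840 TPM with both cytokines, separate groups with a difference of 0.45 (SE 0.17, adjusted p = 0.26).

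At 24 h with IL-4 present, IL-21 gave 2 called higher and 6 lower of the 44, beside 21.8% and 2.39% of all genes tested (24.2% called in all). The median of the 44 was 0.15 and that of all genes tested 0.38. The genes called lower were Npm1, Dkc1, Nop58, Wdr12, Nhp2 and Npm3, led by Npm1 at 3670, 5940 and 7920 TPM with IL-4 and 3250, 3350 and 3850 TPM with both (-0.68, SE 0.22, adjusted p = 0.0322), where replicate 1 of the IL-4 group overlapped. Dkc1 went from 217, 231 and 263 to 153, 165 and 142 TPM (-0.62, SE 0.19, adjusted p = 0.0258), with separate groups, and Nop58 from 760, 1080 and 1560 to 714, 661 and 801 TPM (-0.58, SE 0.21, adjusted p = 0.046), with overlap in replicate 1 of the IL-4 group. Those called higher were Polr1a, at 15.9, 19.9 and 26.2 TPM with both (1.06, SE 0.35, adjusted p = 0.0323), and Rrp12, at 28.4, 32.1 and 32.5 TPM with both (1.05, SE 0.34, adjusted p = 0.0308), and both overlapped the IL-4 group. All 6 genes called lower here were among the 17 called higher with IL-4 at 24 h; the comparisons share the IL-4 libraries.

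This split depended on the libraries and the scale. Among all called genes 90.1% were higher as listed and 49.6% after median-of-ratios scaling, and members called were then 0 higher and 15 lower. With GC-dependent centring they were 0 higher and 14 lower, without the 2 libraries that stood apart 19 higher and 8 lower, and without the filter on low values 2 in all. The shares of all genes tested called higher or lower under these settings are not given here. The count was 26 without replicate 1 of the IL-4 group, 0 without replicate 2 or replicate 3 of it, and 3, 1 and 0 without replicates 1, 2 and 3 of both cytokines. Dkc1, Nhp2, Nop58, Npm1, Npm3 and Wdr12 were called lower in the fit as listed, after either rescaling and without the 2 libraries.

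IL-4 added to anti-CD40 and IL-21 gave 1 called gene at each time. At 6 h it was Nop2, listed at 2.33, 0 and 0.498 TPM with IL-21 and 5.94, 3.67 and 2.61 TPM with both (1.52, SE 0.35, adjusted p = 0.0102), beside 4.16% of all genes tested called, 1.27% higher and 2.89% lower, and none was called without replicate 2 of the IL-21 group or replicate 1 of both cytokines. At 24 h it was Npm3, at 184, 156 and 204 TPM with IL-21 and 270, 270 and 249 TPM with both (0.54, SE 0.12, adjusted p = 0.00659), beside 6.75% called over all genes, 2.22% higher and 4.53% lower. The Npm3 groups were separate. After median-of-ratios scaling the difference of Npm3 was 0.70 (adjusted p = 0.0689), no longer past the threshold, and Pes1 was called in its place. Without the 2 libraries that stood apart 2 genes were called, Npm3 and Nip7. Of all genes called, 32.9% were higher as listed and 45.1% after that scaling.

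The interaction is the IL-21 effect with IL-4 present minus the IL-21 effect without it, on the log2 scale. At 6 h 0 of the 44 were called by limma, and 0.412% of all genes tested were called. An unadjusted p below 0.05 was found for 2 of the 44, beside 851 of all 12147 genes tested. At 24 h 5 were called, all lower, beside 2.48% of all genes called lower and 3.33% higher (5.8% in all). They were Nop58 (-1.29, SE 0.30, adjusted p = 0.00997), Ebna1bp2 (-1.05, SE 0.21, adjusted p = 0.00304), Nhp2 (-0.90, SE 0.17, adjusted p = 0.00175), Ncl (-0.89, SE 0.25, adjusted p = 0.0316) and Npm3 (-0.59, SE 0.17, adjusted p = 0.0488). For Nhp2, IL-21 gave 0.48 without IL-4 and -0.42 with it, and for Nop58 0.70 and -0.58. The median of the 44 was -0.45, against 0.19 for all genes, and among all called genes 57.3% were higher as listed and 44.4% after median-of-ratios scaling.

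The number called at 24 h was 17 after median-of-ratios scaling and 17 with GC-dependent centring, all lower, and 9 without the 2 libraries that stood apart. The matching shares of all genes tested are not given here. Leaving out 1 library gave 9 without replicate 1 of the IL-4 group and 3 without replicate 1 or 2 of anti-CD40, replicate 2 of the IL-4 group, replicate 1 of the IL-21 group, or replicate 1 or 3 of both cytokines. Between 6 h and 24 h the IL-21 effect changed without IL-4 for 0 of the 44 by limma (4.44% of all genes called, 3.1% higher). An unadjusted p below 0.05 was found for 1 of the 44, beside 1890 of all 12147 genes tested. With IL-4 it changed for 2, Nop58 (-1.09, SE 0.30, adjusted p = 0.0376) and Npm3 (-0.62, SE 0.17, adjusted p = 0.0458), both lower, beside 0.576% of all genes called lower and 4.24% called in all. That count was 13 without replicate 1 of the IL-4 group at 24 h, 1 without replicate 1 of both cytokines at 6 h and 0 without any other single library of the 4 groups compared. It was 4 with the replicate block, 10 after median-of-ratios scaling, 10 with GC-dependent centring and 17 without the 2 libraries that stood apart, of which 8 were higher. Among all called genes 86.4% were higher as listed and 61.8% after median-of-ratios scaling.

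From 6 h to 24 h many of these genes fell in every stimulation. With anti-CD40 alone 19 fell and 1 rose, beside 8.17% of all genes tested called lower and 24.3% called in all. With IL-4 14 fell and 0 rose, beside 16.6% lower, 8.82% higher and 25.4% in all. With IL-21 19 fell and 1 rose, beside 9.3% lower and 35.5% in all, and with both 19 fell and 0 rose, beside 9.46% lower and 30.2% in all. Median differences of the 44 were -0.64, -0.57, -0.65 and -0.61 in that order, against 0.15, -0.13, 0.24 and 0.12 for all genes tested. Over all genes, of those called the share higher was 66.3%, 34.6%, 73.8% and 68.7% as listed and 52.6%, 52.8%, 53.8% and 55.2% after median-of-ratios scaling.

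Fbl, Gar1, Gnl2, Mrto4, Nop16 and Wdr43 were called lower in all 4 stimulations, 15 of the 44 genes in none, and 23 in 1 to 3. The matching shares over all genes tested are not given here, so this is a description of the members only. Gar1 had the largest fall with anti-CD40 alone, from 111, 113 and 125 to 34.1, 13.7 and 45.9 TPM (-2.02, SE 0.37, adjusted p = 0.00034), and naive libraries were listed at 31.9, 30.1 and 35.7 TPM. With IL-4 it went from 175, 164 and 155 to 126, 37.8 and 34.1 TPM (-1.57, SE 0.37, adjusted p = 0.00328), with replicate 1 high at 24 h. With IL-21 it went from 225, 187 and 201 to 64.5, 81.1 and 58.1 TPM (-1.58, SE 0.37, adjusted p = 0.00173) and with both from 214, 237 and 277 to 75, 56.5 and 91.9 TPM (-1.71, SE 0.37, adjusted p = 0.00108). The 6 h and 24 h libraries did not overlap in any of the 4 stimulations.

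With anti-CD40 alone Mrto4 fell from 97.3, 79.4 and 95.7 to 37.2, 31.9 and 43.8 TPM (-1.25, SE 0.25, adjusted p = 0.000692) and Fbl from 541, 514 and 558 to 248, 206 and 272 TPM (-1.16, SE 0.26, adjusted p = 0.00242). With IL-4 Utp20 fell from 27.2, 24.8 and 21.8 to 21.8, 7.02 and 5.82 TPM (-1.24, SE 0.33, adjusted p = 0.0081), with overlap in replicate 1. With IL-21 Npm3 fell from 452, 497 and 446 to 184, 156 and 204 TPM (-1.36, SE 0.12, adjusted p = 1.98e-08), and with both Wdr43 fell from 330, 390 and 349 to 143, 153 and 154 TPM (-1.24, SE 0.17, adjusted p = 6.91e-06). Except for Utp20, these groups were separate. As listed, Nop2 was the 1 gene called higher, with anti-CD40 from 0.138, 0.171 and 0.785 to 1.52, 1.68 and 2.35 TPM (1.08, SE 0.35, adjusted p = 0.0259) and with IL-21 from 2.33, 0 and 0.498 to 3.42, 4.44 and 2.08 TPM (1.30, SE 0.35, adjusted p = 0.00546), the latter with overlap and 1 library at 0. With anti-CD40 alone the call was lost without the filter on low values and with GC-dependent centring, where the difference was 0.84 (adjusted p = 0.0537). With IL-4 no gene was called higher as listed, but Dkc1 was after median-of-ratios scaling and with GC-dependent centring, Dkc1 and Npm1 with the replicate block, and Dkc1, Nip7 and Npm1 without the 2 libraries that stood apart.

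The roles did not fall alike in counts. With anti-CD40 alone 9 of 16 large subunit factors, 3 of 12 small subunit factors, 3 of 4 box C/D and 2 of 3 box H/ACA proteins fell, and with both cytokines 9 of 16, 3 of 12, 2 of 4 and 2 of 3. As listed, no RNA polymerase I subunit was called lower in any stimulation. With IL-4, Polr1a was listed at 16.9, 18.3 and 16.3 TPM at 6 h and 22, 8.44 and 3.93 TPM at 24 h, and it was called lower with GC-dependent centring and without the 2 libraries that stood apart. Polr1a was listed at 24.7, 17.1 and 25.8 TPM at 6 h and 27.6, 32.7 and 23.4 TPM at 24 h with IL-21, and Rrp12 at 31.7, 24.8 and 38.7 and 33.4, 41.3 and 22.5 TPM; both overlapped between the times. The differences between roles were not tested.

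The number called with IL-4 over time was 27 without replicate 1 of the IL-4 group at 24 h, 7 without replicate 2 and 5 without replicate 3. With anti-CD40 alone it was 13 without replicate 1 at 6 h. After median-of-ratios scaling 31 were called with anti-CD40 alone, 34 with IL-21 and 29 with both. Without the 2 libraries that stood apart 31 were called with anti-CD40 alone, 30 with IL-4, 27 of them lower, and 29 with both. The shares of all genes tested under these settings are not given here.

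**Figure D4:**
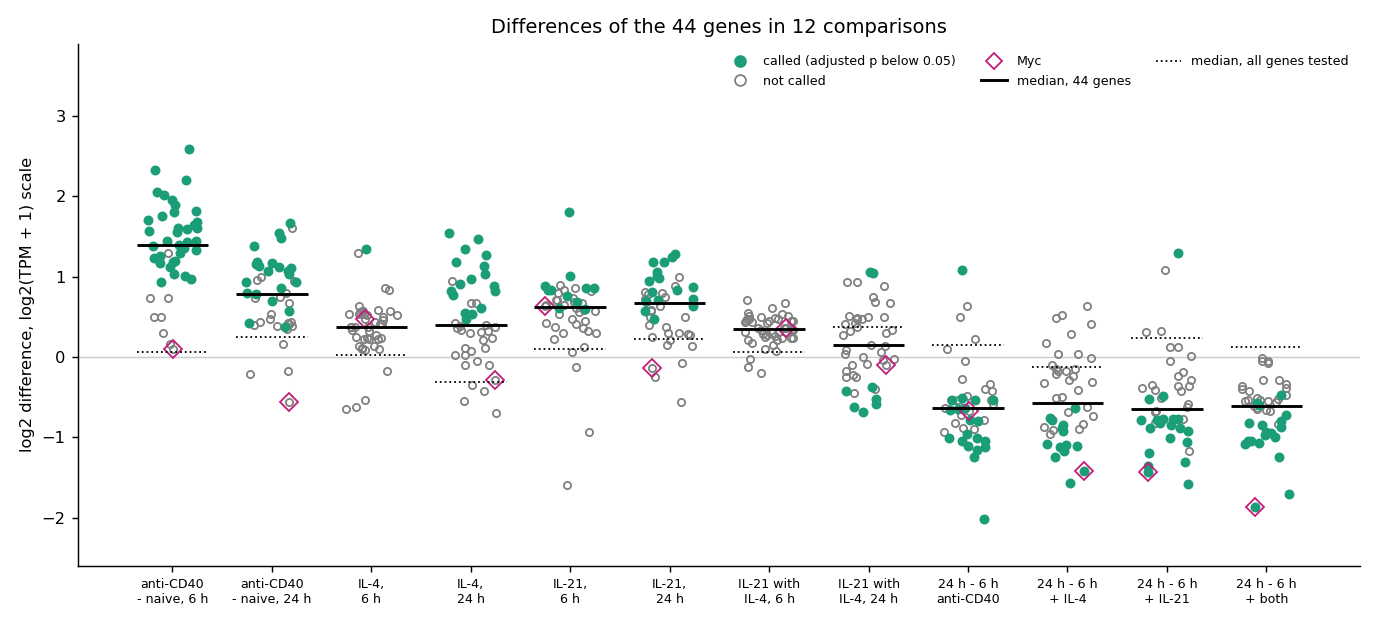
Log2 difference on the log2(TPM + 1) scale (y axis) of each of the 44 genes in 12 comparisons (x axis); filled points are called at an adjusted p below 0.05, open points are not, diamonds mark Myc, solid bars the median of the 44 and dotted bars the median of all 12147 genes tested. The median of the 44 is 1.39 after 6 h of anti-CD40 and -0.61 from 6 h to 24 h with both cytokines, where all 44 points lie below 0.

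Of the members with low values, Nop2 was listed at 0.278, 0 and 0 TPM in naive libraries and 3.15, 5.02 and 2.67 TPM with IL-4 at 24 h, and 3 of its 27 values were 0. Nop14, with 5 zeros, was listed at 0, 3.19 and 0.882 TPM with both cytokines at 6 h and 0.324, 0.673 and 2.18 TPM at 24 h. Polr1b reached 1 TPM in 16 libraries, Polr1c in 21, Nop14 in 11 and Nop2 in 19, against all 27 for 38 of the 44 genes. Tsr1, low in naive cells, was listed at 23, 0.667 and 11.8 TPM with IL-21 at 6 h and 24, 14 and 12.8 TPM with both, with the libraries of the former far apart.

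MYC acts with MAX and against the MNT, MGA and MXD proteins, which compete for MAX and repress. Max was listed at 71.8, 52.9 and 57.7 TPM in naive libraries, 44.4, 33.7 and 48.6 TPM after 6 h of anti-CD40 and 74.4, 71 and 57.7 TPM with both cytokines at 6 h, and was called in no comparison. Mxd4 fell with 6 h of anti-CD40, from 12.4, 2.68 and 4.85 to 1.17, 1 and 2.11 TPM (-1.47, SE 0.31, adjusted p = 0.000833), and Mxd3 (-1.20) and Mxd1 (-0.97) fell with it. Of 11 MYC partners and antagonists tested, 4 were called lower and 0 higher at that time, beside 13.3% of all genes called lower and 16.6% higher. Against naive cells at 24 h 4 were lower and 2 higher, beside 7.85% and 18.9% of all genes. From 6 h to 24 h with anti-CD40 alone 2 were lower and 4 higher, beside 8.17% and 16.1%. Mlxip, of this list, had its largest called difference from naive at 24 h, from 10.4 to 0.854 TPM in group means (-2.65, SE 0.31). It also fell from 6 h to 24 h in every stimulation.

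At 24 h Mxd4 stood at 32.1, 27.2 and 36.4 TPM with anti-CD40 alone, higher than at 6 h by 3.78 (SE 0.31, adjusted p = 2.24e-08). It was lower with IL-4, at 6.49, 7.83 and 5.28 TPM (-2.13, SE 0.31, adjusted p = 2.47e-05), and with IL-21, at 10.2, 11.2 and 10.3 TPM (-1.50, SE 0.31, adjusted p = 0.00122), and was listed at 7.66, 10.4 and 11 TPM with both. The libraries of anti-CD40 alone lay above all others. For Mxd4 at 24 h the interaction was 2.00 (SE 0.44, adjusted p = 0.00754). Mxd3 rose with IL-21 at 24 h, from 2.53, 2.58 and 3.67 to 15.3, 14 and 12.1 TPM (1.92, SE 0.22, adjusted p = 1.28e-06), and with IL-21 in the presence of IL-4, from 6.01, 2.95 and 3.08 to 9.16, 10.9 and 8.09 TPM (1.10, SE 0.22, adjusted p = 0.00152). Mxd1 rose with IL-21 at 6 h, from 1.83, 1.81 and 1.87 to 6.26, 5.88 and 6.32 TPM (1.34, SE 0.21, adjusted p = 0.000151), with separate groups. Mxi1 fell with IL-21 (-1, SE 0.30, adjusted p = 0.0271) and with IL-4 (-1.14, SE 0.30, adjusted p = 0.0257) at 6 h. It was listed at 6.8, 5.02 and 6.69 TPM with anti-CD40 alone, 3.74, 0.927 and 3.9 TPM with IL-21 and 1.95, 2.26 and 2.51 TPM with IL-4. Mnt was listed at 8.15, 7.06 and 8.74 TPM with anti-CD40 at 24 h and 6.35, 2.18 and 1.73 TPM with IL-4 (-1.16, SE 0.30, adjusted p = 0.00513), and Mga at 9.1, 7.8 and 12.3 and 7.6, 3.02 and 0.806 TPM (-1.42, SE 0.42, adjusted p = 0.0138); in both the IL-4 libraries were highest in replicate 1 and lowest in replicate 3, as for Polr1a.

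Genes of the same pathways outside the 44 were mostly higher after 6 h of anti-CD40. Of 35 other known MYC targets in metabolism and translation, 26 were called higher and 0 lower, with a median of 1.47 beside 0.06 for all genes. They were led by Apex1, a DNA repair nuclease, from 11.8 to 93.8 TPM in group means (3.02, SE 0.22, adjusted p = 5.47e-10), Odc1, the rate-limiting enzyme of polyamine synthesis (2.42, SE 0.20, adjusted p = 2.87e-09), and Srm, spermidine synthase (2.38, SE 0.31, adjusted p = 2.14e-06). Of 40 other small subunit factors 28 were called higher and 0 lower, and of 48 other large subunit factors 26 and 1. Pno1, a late small subunit factor, went from 37.6 to 153 TPM in group means (2.00, SE 0.13, adjusted p = 7.38e-11). Of other snoRNP and assembly factors 8 of 11 were called higher, of other RNA polymerase I machinery 11 of 18, of RNA polymerase III machinery 6 of 21 and of the RNA exosome 4 of 15, none of these lists with a gene called lower. The share over all genes tested was 16.6% called higher.

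With IL-21 added, 15 of 35 other MYC targets were called higher at 6 h and 21 at 24 h, beside 7.43% and 17.8% of all genes, led at 24 h by Ldha, lactate dehydrogenase, from 26.2 to 103 TPM in group means (1.96, SE 0.27, adjusted p = 1.13e-05). Of 40 other small subunit factors 6 were called higher at 6 h and 10 at 24 h, and of 48 other large subunit factors 10 and 10, so that the large subunit count at 24 h lay near the share over all genes. The 1 large subunit factor called lower at 24 h was Ddx54, a helicase, which fell (-1.60, SE 0.39, adjusted p = 0.00461). With IL-4 at 24 h 18 of 35 were called higher, beside 8.28% of all genes, and Pno1 rose from 76.1 to 538 TPM in group means (2.78, SE 0.13, adjusted p = 1.77e-12). Other small subunit factors had 11 higher and 1 lower of 40, and other large subunit factors 10 and 2 of 48. Other snoRNP factors had 3 and 1 of 11, other RNA polymerase I machinery 3 and 1 of 18. RNA polymerase III machinery had 2 and 4 of 21 and the exosome 4 and 1 of 15, beside 23.1% of all genes called lower. Interaction calls at 24 h were 11 lower and 0 higher among the 35, beside 2.48% and 3.33% of all genes, and Pno1 had -1.95 (SE 0.18, adjusted p = 9.08e-07). Other lists had fewer: 3 lower and 0 higher of 40 small subunit factors, 3 and 1 of 48 large subunit factors, 2 and 0 of 11 snoRNP factors. No gene was called among 18 of other RNA polymerase I machinery, 21 of RNA polymerase III machinery and 15 of the exosome. From 6 h to 24 h with anti-CD40 alone 19 of the 35 fell and 3 rose, beside 8.17% of all genes called lower and 16.1% higher, with Odc1 falling by 1.92 on the log2 scale (adjusted p = 3.96e-07). Of 40 other small subunit factors 14 fell and 0 rose over that interval, of 48 other large subunit factors 13 and 1, and of 21 RNA polymerase III genes 3 and 2.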

How the data were processed

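Polyadenylated RNA of 27 libraries of mouse splenic B cells was quantified as TPM by the authors, with Salmon 1.9.0 and genome build GRCm38 per the submitters' processing notes. The deposited TPM values carry no counts, so depth is unknown and TPM shows relative abundance: if 1 set of transcripts rises, others fall. Per the labels' protocols, poly(A) RNA was selected before library construction.

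From these values log2(TPM + 1) was tested with limma 3.58.1 in R 4.3.3, with 1 mean for each of 9 groups and a trended prior, on the 12147 genes that reached 1 TPM in 3 or more libraries. There were 18 residual degrees of freedom and 18 contrasts, and p values were adjusted over all genes tested by the Benjamini-Hochberg method, with calls at an adjusted p below 0.05. The steps were tested on simulated data. No pair of libraries held identical values. The members and lists were chosen with earlier results of these data known. Named are the 3 called members with the largest rise and fall in a comparison, members called against the rest, and a fixed panel by role; of other lists, up to 3 called genes. Alternatives were a pseudocount of 0.1, no filter (25430 genes), median-of-ratios scaling, the replicate number as a block and each library left out, and, chosen after seeing the data, GC-dependent centring (12100 genes) and leaving out 2 libraries.

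Replicate numbers are shared by the groups, and no label says what they stand for. At 6 h, same-numbered libraries deviated together in every pair when IL-21 was added to anti-CD40 (r = 0.186 to 0.335) or to anti-CD40 with IL-4 (0.183 to 0.377) and when IL-4 was added to anti-CD40 (0.107 to 0.382). This did not hold in the other comparisons. The pairing there comes from these correlations alone. Promoter sequences are from RefSeq (GRCm38.p6) and gene positions from the GENCODE annotation of GRCm38.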

Additional observations from a re-analysis of the deposited data

Results flagged for a closer look

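Differences between IL-21 effects were tested directly in the fit across all genes, and 5 members passed at 24 h for the effect with IL-4 against that without it. The differences were -1.29 for Nop58, -1.05 for Ebna1bp2, -0.90 for Nhp2, -0.89 for Ncl and -0.59 for Npm3, each on the log2(TPM + 1) scale. Single effects of IL-21 at 24 h, without and with IL-4, were 0.81 and -0.23 for Ebna1bp2, 0.64 and -0.25 for Ncl and 0.21 and -0.37 for Npm3. From 6 h to 24 h, with IL-4 present, the IL-21 effect changed by -1.09 for Nop58 and -0.62 for Npm3. All of these rest on the 3 libraries of anti-CD40 with IL-4 at 24 h. These spread widely for Nop58, at 760, 1080 and 1560 TPM, and less for Npm3, at 294, 339 and 400 TPM, and Nhp2, at 455, 553 and 537 TPM. The SE of each gene came from the spread of all 9 groups, not of this group alone. In that group the rank correlation with GC content across genes differed in sign between the libraries. Such signs differed within every group, since each deviation is taken from the group's own mean, but replicate 1 was positive in every group. With GC-dependent centring the 24 h differences were -1.33 (adjusted p = 0.00259) for Nop58, -1.24 (adjusted p = 0.00298) for Ebna1bp2 and -1.20 (adjusted p = 0.0189) for Nhp2, and the changes with time -1.21 (adjusted p = 0.00939) for Nop58 and -1.09 (adjusted p = 0.0394) for Npm3, all past the threshold of limma's test. Ncl was also called at 24 h with that centring, and Npm3 was not.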

How the results depend on the processing

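After median-of-ratios scaling the number of members called was 19 for IL-21 at 6 h, 2 and 15 for IL-21 with IL-4 at 6 h and 24 h, 9 and 32 for IL-4 at 6 h and 24 h, 17 for the 24 h interaction, 31, 34 and 29 over time with anti-CD40, IL-21 and both, and 10 for the change with time of the IL-21 effect in the presence of IL-4. With GC-dependent centring these were 23, 3 and 14, 9 and 31, 17, 34, 38 and 35, and 10, and 1 for the change without IL-4. Without the 2 libraries that stood apart they were 29, 3 and 27, 10 for IL-4 at 6 h, 9, 31 and 29 for anti-CD40 and both over time, and 17, with 36 for anti-CD40 at 24 h, 27 for IL-21 at 24 h, 2 for IL-4 added to IL-21 at 24 h and 30 over time with IL-4. Without the filter the count was 2 for IL-21 with IL-4 at 24 h, 0 for IL-4 at 6 h and 0 for the change with IL-4, and a pseudocount of 0.1 gave 0 for IL-4 at 6 h; the cause was not tested.

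With the replicate number as a block the count was 2 for IL-4 at 6 h and 4 for the change with time of the IL-21 effect in the presence of IL-4, and within 1.5 times of the count without the block in the other comparisons. The pairing is in the data only: 23 of 27 libraries correlated best with a library of their own number.

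Leaving out 1 library gave 33 to 37 and 13 to 32 members for anti-CD40 at 6 h and 24 h, 8 to 9 and 5 to 21 for IL-21, 0 to 0 and 0 to 26 for IL-21 with IL-4, 0 to 1 and 14 to 21 for IL-4, 0 to 1 and 1 to 1 for IL-4 added to IL-21, 0 to 0 and 3 to 9 for the interaction, 13 to 18, 5 to 27, 18 to 20 and 15 to 18 over time with anti-CD40, IL-4, IL-21 and both, and 0 to 0 and 0 to 13 for the change without and with IL-4.

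The mean log2 level of the 44 genes at 6 h was 5.73, 6.12, 6.22 and 6.46 with anti-CD40, IL-4, IL-21 and both under a pseudocount of 0.1 and 5.77 with both at 24 h, and after median-of-ratios scaling 5.49 with IL-21 and 5.67 with both at 24 h. Single results were followed for Myc in every comparison and for the named members with the largest called differences, 57 in all. Being chosen by size, they do not stand for all members. Over these 57 results, 627 of 738 kept their direction and side of the threshold, 81 lost the call, 12 gained it and 18 changed sign. All 18 are of Myc, in comparisons where its difference as listed was not past the threshold. Against naive at 6 h it was -0.05 after median-of-ratios scaling and -0.05 to 0.35 without single libraries. For IL-21 at 24 h the latter range was -0.36 to 0.06. For IL-21 with IL-4 at 24 h it was -0.58 to 0.48, with 0.48 also without the 2 libraries, while it was past the threshold, and negative, at -0.64 (adjusted p = 0.0311) after median-of-ratios scaling and -0.62 (adjusted p = 0.0379) with GC-dependent centring. For IL-4 at 24 h it was -0.85 to 0.20, with 0.17 after scaling and 0.15 with GC-dependent centring. For the 24 h interaction it was -0.44 to 0.62, with -0.25 under both rescalings, and for the change with IL-4 -0.94 to 0.12, with 0.12 also without the 2 libraries. Depth is unknown, so the precision of low genes could not be set from counts. For the counts under other settings, the share of all genes called in the same setting is not given here.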
